A study of Mus musculus with 7 samples.

Results

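The 10 genes described here sense oxygen or answer to its shortage: Hif1a, Epas1 and Arnt, the subunits of the hypoxia-inducible factors; Egln1, Egln2 and Egln3, the prolyl hydroxylases that read oxygen; Vhl and Hif1an, further brakes on the factors; and Vegfa and Bnip3, genes that the factors drive. Every peak of histone H3 lactylated at lysine 18 (H3K18La) whose annotated gene was one of the 10 was taken, which gave 57 of the 108253 peaks of the series. Each gene had at least 1 promoter peak, and 11 of the 57 lay in promoters. For each gene the promoter peak nearest the start site was described before the others. The mark was profiled by CUT&Tag, in which an antibody brings an enzyme to the chromatin it binds so that nearby DNA can be sequenced, in dissociated whole retina of C57Bl/6J mice. There were 2 libraries at postnatal day 4 (P4), 2 at P10 and 3 at P28. No group carried a treatment or an engineered allele, and the labels named no sorted cell type, so each library is of the whole tissue. In such bulk samples fewer cells carrying the mark and less mark per cell cannot be told apart, and where libraries of an age did not come from separate animals the p-values measure technical spread only.

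In oxygen the prolyl hydroxylases mark the alpha subunits HIF-1α (encoded by Hif1a) and HIF-2α (encoded by Epas1), the von Hippel-Lindau protein (encoded by Vhl) recognises that mark, and the alpha subunits are destroyed. When oxygen falls they persist, pair with ARNT and bind the short core that hypoxia response elements share, as in Vegfa, whose protein makes blood vessels grow. The retina is among the tissues that consume the most oxygen, and in the mouse its vessels spread over the surface and into the deeper layers during the postnatal weeks sampled here.

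Promoter windows of 250 bases before to 50 bases after the annotated start were available from RefSeq (GRCm38.p6, the build of the peaks) for 9 of the 10 genes. They were searched on both strands for the hypoxia response core, spelled ACGTG or GCGTG, and 8 of the 11 windows, from 7 genes, held at least 1 match. Of all 32851 windows of the same length, 43.8% held one. The 5 windows shown belong to the factor subunit with the highest level, the pair of hydroxylases compared within libraries, and both target genes, and capitals mark the matches. Hif1a, plus strand, chr12:73907617-73907916, holds 3 matches, of which a pair overlap in the palindrome CACGTG (the E-box), and lies wholly in its promoter peak. Egln1, minus strand, chr8:124949205-124949504, holds 2 matches and has 226 of its 300 bases in the peak. Egln3, minus strand, chr12:54203825-54204124, holds 1 match and has 154 bases in the peak. Vegfa, minus strand, chr17:46032328-46032627, holds none and lies wholly in the more upstream of the 2 Vegfa promoter peaks. A second Vegfa window, chr17:46025114-46025413, belongs to an annotated start further inside the gene, holds 2 matches and overlaps no peak. Only through that window is Vegfa one of the 7 genes with a match. Bnip3, minus strand, chr7:138909457-138909756, holds 5 matches in 4 separate runs, a pair again overlapping in CACGTG, and lies wholly in its peak.
Hif1a: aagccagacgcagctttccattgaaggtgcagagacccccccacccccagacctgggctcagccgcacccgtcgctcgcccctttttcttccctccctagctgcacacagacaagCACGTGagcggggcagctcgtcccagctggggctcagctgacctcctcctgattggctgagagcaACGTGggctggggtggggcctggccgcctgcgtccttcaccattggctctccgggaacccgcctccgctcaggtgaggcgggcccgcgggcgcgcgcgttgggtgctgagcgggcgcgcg
Egln1: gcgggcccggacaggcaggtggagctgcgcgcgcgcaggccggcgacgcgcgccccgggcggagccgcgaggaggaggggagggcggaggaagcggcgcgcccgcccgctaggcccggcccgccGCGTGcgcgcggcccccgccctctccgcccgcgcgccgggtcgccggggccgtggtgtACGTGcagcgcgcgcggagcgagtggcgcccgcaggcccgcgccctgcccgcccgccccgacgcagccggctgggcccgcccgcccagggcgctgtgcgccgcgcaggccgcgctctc
Egln3: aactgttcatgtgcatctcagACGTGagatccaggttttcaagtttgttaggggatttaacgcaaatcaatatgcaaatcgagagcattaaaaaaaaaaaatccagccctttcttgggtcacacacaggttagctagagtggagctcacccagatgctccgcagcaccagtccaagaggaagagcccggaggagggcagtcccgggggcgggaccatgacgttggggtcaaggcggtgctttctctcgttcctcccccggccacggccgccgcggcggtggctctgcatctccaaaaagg
Vegfa: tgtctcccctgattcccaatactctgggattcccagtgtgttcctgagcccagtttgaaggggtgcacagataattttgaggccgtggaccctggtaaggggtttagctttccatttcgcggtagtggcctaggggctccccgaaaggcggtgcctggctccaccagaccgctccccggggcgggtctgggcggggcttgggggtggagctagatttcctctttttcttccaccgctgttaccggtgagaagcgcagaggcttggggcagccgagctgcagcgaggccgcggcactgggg
Bnip3: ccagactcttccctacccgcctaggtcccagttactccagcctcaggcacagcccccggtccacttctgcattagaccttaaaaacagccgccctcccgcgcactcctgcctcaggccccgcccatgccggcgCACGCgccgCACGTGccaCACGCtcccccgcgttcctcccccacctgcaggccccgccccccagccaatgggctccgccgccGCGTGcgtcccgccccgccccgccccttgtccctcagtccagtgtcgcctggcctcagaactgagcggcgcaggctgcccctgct
A match is a description of the letters and not a bound site. GC content was 69.3% at Hif1a, 86.0% at Egln1, 54.7% at Egln3, 62.0% at Vegfa and 71.7% at Bnip3, and its median over all windows was 52.7%.

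Depth differed strongly between libraries and limits the younger ages most. The libraries held 295383 and 358971 reads in peaks at P4, 199970 and 660740 at P10, and 1615969 to 8274373 at P28. Over the 10 promoter peaks this came to 44 and 47 reads in the P4 libraries, 44 and 124 at P10, and 525 to 2372 at P28. A promoter peak with no read appeared 4 times in P4 replicate 2 and 3 times in P10 replicate 1. The share of reads in peaks was 16.3% and 17.6% at P4, 36.1% and 52.1% at P10, and 42.4% to 57.1% at P28. The labels gave batch 2 to P28 replicate 1 and batch 1 to the rest. Values are RPKM, reads scaled by peak length and by the authors' normalised library size, and changes are differences of log2(RPKM + 1) with their standard error (SE) from limma over all 108253 peaks. A peak is said to rise or fall where the Benjamini-Hochberg adjusted p was under 0.01. At rod photoreceptor marker promoters, which checks the labelled tissue, the summed level was 21.4 and 25.0 RPKM at P4, 175 and 176 at P10, and 125 to 173 at P28, and 6 of 6 rose in both comparisons with P4. At markers of endothelial cells 0 of 4 rose and 1 fell between P4 and P28, with summed levels of 7.02 to 9.41 RPKM at P4, 11.7 to 16.8 at P10 and 6.52 to 7.87 at P28. Between P4 and P10, 1 of the 4 rose (Esam, 2.21, adjusted p = 0.00265) and 1 fell. The pericyte marker Notch3, the only one of 4 with a promoter peak, rose by P28 (2.14, adjusted p = 0.00313) and by P10 (2.48, adjusted p = 0.00343). Of the Mueller glia markers 1 of 5 rose by P28, with sums of 8.33 to 8.76, 16.8 to 17.9 and 20.4 to 27.4 RPKM. Of 5 progenitor and cycling cell markers none passed at either age, and the estimate was below 0 at 1 by P28 and at 4 by P10. The only astrocyte marker (S100b) and pigment epithelium marker (Best1) with a promoter peak did not pass. No microglia marker had a promoter peak. Among all promoters 34.2% rose by P28 and 12.7% by P10, so counts such as 0 of 4 or 1 of 5 are no result by themselves. The part that a changing cell make-up has in the results was not tested.

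Between P4 and P28 the promoter mark rose at 7 of the 10 genes, Hif1a, Epas1, Arnt, Egln1, Hif1an, Vegfa and Bnip3, and fell at none. Egln2 and Vhl had estimates above 0 that did not pass the test, and Egln3 alone had an estimate below 0. The background is high, since 34.2% of the promoter peaks of 11686 protein-coding genes rose and 0.342% fell. A peak entered the table only when called in at least 2 replicates of some age. At Arnt, Hif1an and Bnip3, both P4 and P10 had a library with at most 2 reads. These peaks could enter only through P28, so within the 7 their rise is a description and no independent test. At Egln1 and Vegfa a P4 library had at most 1 read, so those peaks could enter only through P10 or P28. The rise of these from P4 is likewise no independent test. The median change of the 10 genes was 2.41, and over all those promoters it was 1.36. Every P28 library lay above every P4 library at 9 of the 10 promoters, as it did at 79.7% of all promoters, so this separation is common. Left out in turn, any of the P4 or P28 libraries reduced the 7 to 4 (without P28 replicate 1 all libraries were of batch 1), and either P10 library raised it to 9. The share of all promoters called in either direction moved likewise, from 34.5% to between 10.5% and 18.7%, and to 56.4% and 56.6%. Scaled to reads in peaks, where the P4 libraries had the lowest shares, Epas1 and Arnt still rose and the other 8 did not pass. Of all peaks called in that comparison, 81.8% were higher at P28 as deposited, 31.9% with scaling to reads in peaks and 56.9% with median centring.

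**Figure D1:**
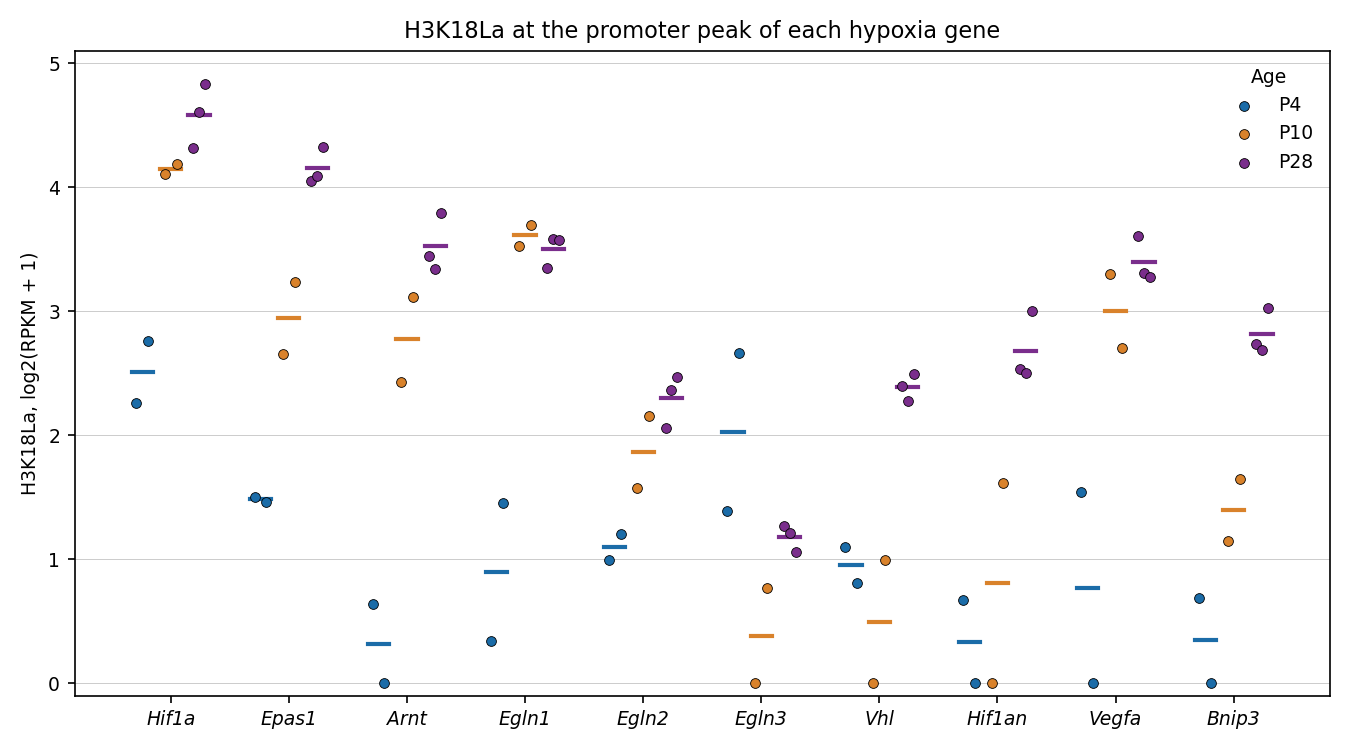
H3K18La at the promoter peak nearest the start site of each gene, as log2(RPKM + 1) on the vertical axis, with 1 point per library and a bar at the mean of each age (P4 blue, P10 orange, P28 purple). Points at 0 are libraries with no read, and Egln3 is the only gene whose P28 libraries all sit below its P4 libraries.

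By P10 the mark had risen at 5 promoters, Hif1a, Epas1, Arnt, Egln1 and Vegfa, and fallen at none, against 12.7% of promoters that rose and 0.873% that fell. The median change was 1.26 over the 10 genes and 0.56 over all promoters. Every P10 library was above every P4 library at 7 of 10, as at 46.7% of all promoters. The 5 became 2 without P4 replicate 1 or P28 replicate 2, 1 without P4 replicate 2, 3 without P28 replicate 1 or 3 and 4 without either P10 library. The comparisons of P10 and of P28 with P4 share the P4 libraries. Arnt, Egln1 and Vegfa could not enter the table through P4, so their rise from P4 is no independent test.

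**Figure D2:**
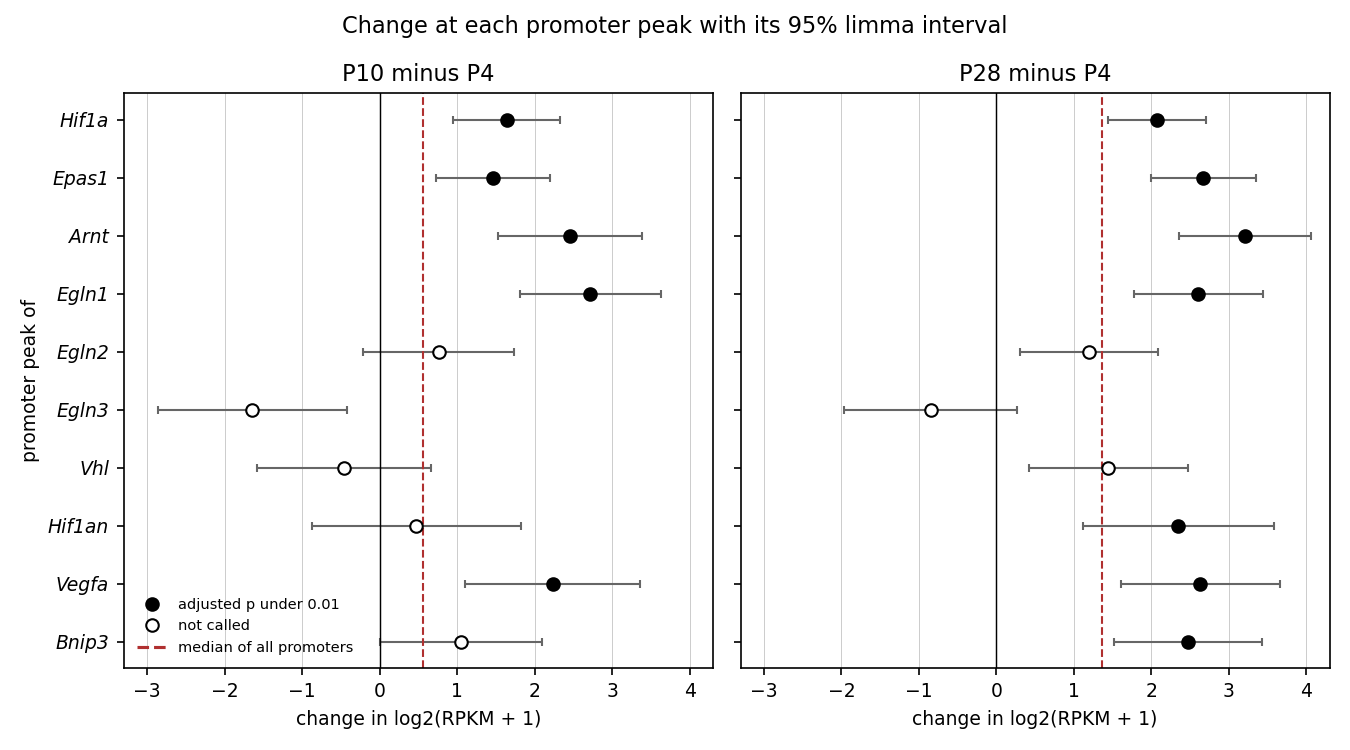
Change in log2(RPKM + 1) at each promoter peak from P4 to P10 (left) and from P4 to P28 (right), with its 95% limma interval as the horizontal bar. Filled points passed an adjusted p of 0.01, and the dashed line is the median of all promoters, 0.56 at P10 and 1.36 at P28.

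Hif1a encodes the alpha subunit HIF-1α, and its single peak, chr12:73907393-73908946, covers its start site. Its level was 3.80 and 5.76 RPKM in the P4 libraries, 16.3 and 17.2 at P10, and 18.9, 23.4 and 27.5 at P28. The ages did not overlap, and most of the gain was present at P10. The rise was 1.64 ± 0.31 (SE) by P10 (adjusted p = 0.00386) and 2.07 ± 0.28 by P28 (adjusted p = 0.000562). Pooled over libraries, which lets the deeper ones weigh more, reads per effective library were 5.08 times those at P4, with a 95% exact counting interval of 3.49 to 7.69. Among all promoters, Hif1a stood at percentile 89.9 and 96.9 at P4, 97.1 and 96.2 at P10, and 96.5 to 97.8 at P28, so it was near the top at every age. Without P4 replicate 1 the P28 change was 1.83 (adjusted p = 0.0113), and it was 0.69 (adjusted p = 0.0344) when libraries were scaled to their reads in peaks. The P10 call was lost without P4 replicate 1, P4 replicate 2 or P28 replicate 2, with adjusted p of 0.0284, 0.0137 and 0.0139, and with scaling to reads in peaks (0.45, adjusted p = 0.184).

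Epas1 encodes HIF-2α, the alpha subunit best known from blood vessels and from control of erythropoietin. Its promoter peak, chr17:86752851-86755570, had 1.84 and 1.76 RPKM at P4, 5.31 and 8.40 at P10, and 15.5, 16.0 and 19.0 at P28. Each age lay wholly above the one before. The rise was 1.46 ± 0.33 by P10 (adjusted p = 0.00818) and 2.67 ± 0.30 by P28 (adjusted p = 0.000264), and the read ratio of P28 to P4 was 9.23 (interval 5.88 to 15.4). Its percentile among promoters went from 58.7 and 52.8 at P4 to 76.1 and 84.9 at P10 and 92.9 to 93.9 at P28, so it also gained on other promoters. The P28 rise passed the test in all 13 alternative settings. The P10 rise passed in 5 of them and, with one library left out, only without P10 replicate 1. Leaving out any of the other libraries (both of P4, P10 replicate 2 and all 3 of P28) gave adjusted p of 0.0167 to 0.0362, and scaling to reads in peaks gave a change of 0.44 (adjusted p = 0.204).

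Arnt encodes the shared partner of both alpha subunits. Its promoter peak, chr3:95434034-95434854, had 1 read in P4 replicate 1 (0.55 RPKM) and none in P4 replicate 2, where 3 reads would be 2.18 RPKM. It had 4.40 and 7.68 RPKM at P10 and 9.91, 9.13 and 12.8 at P28. All later libraries were above both P4 values, but P10 replicate 1 held only 2 reads, where 3 reads would be 6.60 RPKM, so by itself it is not separated from P4 at this depth. The rise was 2.46 ± 0.42 by P10 (adjusted p = 0.00253) and 3.21 ± 0.38 by P28 (adjusted p = 0.000314), the largest estimate among the 10 genes at P28. With a single P4 read the read ratio of 32.1 is known only within 5.69 to 1272. With 2 reads in P10 replicate 1, the peak could enter the table only through P28, so its higher level there is a description. The P28 rise held in all 13 settings, while the P10 rise was lost without P4 replicate 1 (adjusted p = 0.0117) or P4 replicate 2 (adjusted p = 0.0205).

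Of the prolyl hydroxylases, Egln1 encodes PHD2, the main oxygen sensor for HIF-1α, and its promoter peak, chr8:124949279-124950992, had 0.27 and 1.74 RPKM at P4, 10.5 and 11.96 at P10, and 9.18, 11.0 and 10.9 at P28. The level was thus reached by P10 and overlapped between P10 and P28. With 1 read in P4 replicate 1, the peak could enter the table only through P10 or P28. Its rise from P4 is therefore a description, and the p-values are no independent test. The rise was 2.71 ± 0.41 by P10 (adjusted p = 0.00157) and 2.60 ± 0.37 by P28 (adjusted p = 0.000708), with read ratios of 12.8 (interval 5.33 to 37.1) and 11.8 (5.40 to 32.4). Both held whichever library was left out, and both missed the threshold when libraries were scaled to reads in peaks, with changes of 1.93 (adjusted p = 0.0121) and 1.64 (adjusted p = 0.0146).

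Egln3 encodes PHD3, a hydroxylase whose own gene is induced by hypoxia. Its promoter peak, chr12:54202858-54203978, had 1.62 and 5.32 RPKM at P4, 0 and 0.70 at P10, and 1.40, 1.32 and 1.08 at P28. All 5 later libraries were below both of those from P4, on 14 reads at P4, 1 at P10 and 37 at P28. The change did not pass the test at P28 (-0.85 ± 0.50, adjusted p = 0.191) or at P10 (-1.64 ± 0.55, adjusted p = 0.0407), and its estimate was below 0 at both ages in all 13 settings. Its size rested on P4 replicate 2, which held 10 of the 14 P4 reads: without that library the changes were -0.21 at P28 (adjusted p = 0.742) and -1.01 at P10 (adjusted p = 0.178), and without P4 replicate 1 they were -1.48 (adjusted p = 0.0735) and -2.28 (adjusted p = 0.0295). Scaled to reads in peaks, the P10 estimate was -2.57 and passed (adjusted p = 0.00693), and the P28 estimate was -1.93 (adjusted p = 0.0147). In P10 replicate 1, 3 reads over this peak would be 4.83 RPKM, so the absence of reads there does not separate it from P4. Its percentile among promoters was 52.4 and 95.9 at P4 and 3.88 to 8.10 at P28.

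The contrast between Egln1 and Egln3 can be read inside each library, where scaling of the whole library has little part. The Egln1 promoter level minus that of Egln3, in log2(RPKM + 1), was -1.05 and -1.21 at P4, 3.53 and 2.93 at P10, and 2.08, 2.37 and 2.52 at P28. Egln3 was the higher of the pair in both P4 libraries, on 4 reads against 1 and 10 against 5, and Egln1 in all 5 later ones. The mean difference was -1.13 ± 0.11 (SD, n = 2) at P4 and 2.32 ± 0.22 (SD, n = 3) at P28. The two-sided exact permutation test gave p = 0.2 (0.3 adjusted over 9 such tests), the smallest that 3 against 2 libraries allow, and p = 0.333 (0.375 adjusted) for P10 against P4, the smallest for 2 against 2. This measure was chosen after the values were seen.

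Egln2 encodes PHD1. Its promoter peak, chr7:27165957-27167782, had 1.00 and 1.31 RPKM at P4, 1.98 and 3.45 at P10, and 3.16, 4.14 and 4.54 at P28. All later libraries were above P4, and P10 overlapped P28. The change was 1.19 ± 0.40 at P28 (adjusted p = 0.0362), close to the promoter median, and 0.76 ± 0.44 at P10 (adjusted p = 0.214), where it turned to -0.11 with scaling to reads in peaks. Without P10 replicate 1 or P10 replicate 2 the P28 change passed the test, with adjusted p of 0.00859 and 0.00865, and without any one of the P4 or P28 libraries the adjusted p was 0.055 to 0.132. The P28 change was 0.67 with median centring (adjusted p = 0.155) and 0.16 with scaling to reads in peaks (adjusted p = 0.73).

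Vhl encodes the recognition subunit of the ubiquitin ligase that removes hydroxylated alpha subunits. Its only peak, chr6:113623951-113625548, had 1.14 and 0.75 RPKM at P4, 0 and 0.99 at P10, and 4.27, 3.85 and 4.65 at P28. P4 and P10 overlapped, and all 3 P28 libraries stood above both. P4 replicate 2 held 2 reads, and P10 replicate 1 held none, where 3 reads would be 3.39 RPKM. The peak could thus enter the table only through P28. Its higher level there is a description, and the p-values are no independent test. The change was 1.44 ± 0.46 at P28 (adjusted p = 0.0304) and -0.46 ± 0.50 at P10 (adjusted p = 0.527), where it was 0.04 without P10 replicate 1 and -0.95 without P10 replicate 2. The P28 change passed without P10 replicate 1 (adjusted p = 0.00345) or P10 replicate 2 (adjusted p = 0.0037), and had adjusted p of 0.0737 to 0.136 without any one of the P4 or P28 libraries. It was 0.92 with median centring (adjusted p = 0.104) and 0.45 with scaling to reads in peaks (adjusted p = 0.414). The read ratio of P28 to P4 was 4.22 (interval 1.90 to 11.7).

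Hif1an encodes FIH, an asparagine hydroxylase that blocks the transcriptional activity of the alpha subunits. Its promoter peak, chr19:44562408-44563171, had 0.59 and 0 RPKM at P4, 0 and 2.06 at P10, and 4.81, 4.67 and 7.01 at P28. The P28 values were above those of the other ages, which overlapped and together held 3 reads. In P10 replicate 1, 3 reads would be 7.09 RPKM, so its absence of reads does not separate it from P28. The rise by P28 was 2.34 ± 0.55 (adjusted p = 0.00816), the weakest of the 7 by adjusted p. On the 3 reads of the younger ages this peak could enter the table only through P28. Its higher level there is therefore a description, and the p-value is no independent test. The change passed in 4 of 13 settings and was lost without either P4 library or any of the 3 P28 libraries, with adjusted p of 0.0302 to 0.0906. Scaled to reads in peaks it was 1.67 (adjusted p = 0.034). The P10 change was 0.47 ± 0.60 (adjusted p = 0.589). It was 0.03 with scaling to reads in peaks, and with one library left out it ran from -0.34 to 1.28.

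Vegfa encodes vascular endothelial growth factor A, the HIF target that draws vessels into the retina. It had 2 promoter peaks, which overlap different annotated starts. The peak used above by the naming rule, chr17:46030222-46031649, holds 3 annotated starts and had 1.91 and 0 RPKM at P4, 8.85 and 5.52 at P10, and 11.2, 8.91 and 8.71 at P28. All later libraries were above P4, and P10 replicate 1 fell within the P28 range. With no read in P4 replicate 2, this peak could enter the table only through P10 or P28. Its rise from P4 is therefore a description, and the p-values are no independent test. The rise was 2.23 ± 0.50 by P10 (adjusted p = 0.00804) and 2.63 ± 0.46 by P28 (adjusted p = 0.00188), with a read ratio of 8.49 (interval 3.86 to 23.3) at P28.

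The other Vegfa promoter peak, chr17:46032245-46032912, lies over the RefSeq start whose sequence is shown above. It had 2.04 and 0.89 RPKM at P4, 2.70 and 2.36 at P10, and 9.43, 7.64 and 8.27 at P28. The P10 values lay close to P4 and below P28, but 2.70 RPKM is 1 read in P10 replicate 1, so at this depth that library is not separated from P28. This peak rose by P28 (1.97 ± 0.36, adjusted p = 0.00225) and did not pass at P10 (0.56 ± 0.39, adjusted p = 0.313), on 4 reads at P4 and 3 at P10. On so few reads it could enter the table only through P28, so its higher level there is a description. Whether the 2 peaks differ in their P10 change was not tested. For the peak used by the rule, the P28 rise was lost without P4 replicate 2 (1.86, adjusted p = 0.0176) and without P28 replicate 1, 2 or 3 (adjusted p = 0.0143, 0.0105 and 0.0107). Its P10 rise was lost without P4 replicate 2, P10 replicate 1 or any of the P28 libraries, with adjusted p of 0.0189 to 0.0423. Scaled to reads in peaks, the changes were 1.78 by P28 (adjusted p = 0.0544) and 1.58 by P10 (adjusted p = 0.118).

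Bnip3 encodes a mitophagy receptor and is a classical HIF-1 target. Its promoter peak, chr7:138908722-138910200, had 0.61 and 0 RPKM at P4, 1.22 and 2.13 at P10, and 5.68, 5.44 and 7.12 at P28. The ages did not overlap, on 2 reads at P4 and 5 at P10, of which P10 replicate 1 held 1, where 3 reads would be 3.66 RPKM. The rise by P28 was 2.47 ± 0.43 (adjusted p = 0.00177), and the P10 change of 1.05 ± 0.47 did not pass (adjusted p = 0.111). With no read in P4 replicate 2 and 1 in P10 replicate 1, the peak could enter the table only through P28. Its higher level there is therefore a description, and the p-value is no independent test. On 2 reads at P4 the read ratio of 16.8 has an interval of 4.59 to 139. The P28 call was lost without P4 replicate 1, P4 replicate 2 or P28 replicate 1, 2 or 3, with adjusted p of 0.0101, 0.0183, 0.0109, 0.014 and 0.0166, and with scaling to reads in peaks (1.79, adjusted p = 0.0138).

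Ordered by mean level per length, Hif1a was highest at every age, at 4.78 ± 1.39 RPKM (SD, n = 2) at P4, 16.8 ± 0.70 (SD, n = 2) at P10 and 23.2 ± 4.27 (SD, n = 3) at P28. At P28 Epas1 followed (16.9 ± 1.86), and its range met that of Hif1a. Arnt, Egln1 and Vegfa came next at 10.6, 10.3 and 9.61 RPKM with overlapping ranges, and Bnip3 and Hif1an followed at 6.08 and 5.49, again overlapping. Vhl (4.25) and Egln2 (3.95) overlapped each other, and Egln3 was last at 1.27 ± 0.17, below every library of the others. At P4 Egln3 had ranked 2 of 10 with 3.47 ± 2.62 RPKM, and its range overlapped those of Hif1a, Epas1, Vegfa and Egln1. That rank came from P4 replicate 2, since in P4 replicate 1 Egln3 (1.62) was below Vegfa (1.91) and Epas1 (1.84). The Hif1a minus Epas1 difference within a library was 0.76 and 1.30 at P4, 1.45 and 0.96 at P10, and 0.27, 0.52 and 0.51 at P28 in log2(RPKM + 1). It was lowest in the 3 P28 libraries, with exact permutation p = 0.2 against P4 and against P10 (0.3 adjusted over the 9 tests), the smallest possible.

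Between P10 and P28 no promoter of the group passed an adjusted p of 0.01 in limma, as in 0.0% of all promoters. At an unadjusted p under 0.05 there were 4, and voom on the recovered reads called 1, Vhl (2.26, adjusted p = 0.00796). At an adjusted p under 0.05 there were 2, Vhl (1.90 ± 0.46, adjusted p = 0.0288) and Epas1 (1.21 ± 0.30, adjusted p = 0.0318), against 15.5% of all promoters that were higher at P28. Without P10 replicate 2, which leaves 1 P10 library, the change was larger at both, at 1.495 for Epas1 and 2.39 for Vhl. At Hif1an it was 2.68, against 1.87 with all libraries. The median of all promoters also rose, to 0.86. With all libraries the median change of the 10 was 0.77, and that of all promoters 0.73. The Vhl and Hif1an peaks could enter the table only through P28, so their higher levels there are a description with no independent test.

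Over all 57 peaks, 24 rose between P4 and P28 and none fell, against 18.9% and 4.21% of all peaks. Between P4 and P10, 24 rose and 1 fell, against 11.4% and 7.34%. Epas1 alone held 25 of the 57 peaks, so these counts lean on one locus. The 24 by P28 became 12 or 13 without any one of the P28 libraries. Of all 108253 peaks, 25041 were called in either direction between P4 and P28, and 11401 to 14838 without any one of those libraries. The remaining genes had 7 peaks each at Egln1, Egln3 and Vegfa, 3 at Hif1an, 2 each at Arnt, Egln2 and Bnip3, and 1 each at Hif1a and Vhl. Peaks outside promoters carry the name of the nearest gene only. The start of any other protein-coding gene was at least 6968 bases from each of the 57.

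The Epas1 locus had 24 peaks outside its promoter, from 24519 bases upstream to 72924 bases downstream of the start. Of these, 16 rose by P10 and 8 by P28, none fell, and the estimate was above 0 for all 24 in both comparisons. Of all peaks, promoters included, 11.4% rose by P10 and 18.9% by P28. Their median change was 2.19 by P10 and 1.72 by P28, and over all 91109 peaks outside promoters it was 0.15 and 0.54. Many of the 24 had a P4 library with at most 2 reads, among them the peaks 5551 and 64998 bases downstream. Such peaks could enter the table only through P10 or P28. Their rise from P4, which the counts and medians include, is a description and no independent test. The highest by mean level at P10 and P28 was an exonic peak 55391 bases into the gene, chr17:86809091-86811357, with 2.00 and 3.16 RPKM at P4, 23.9 and 21.2 at P10, and 24.5, 23.0 and 28.9 at P28. It was at its adult level by P10 and had the most reads of the 24, with changes of 2.73 (adjusted p = 0.00054) and 2.90 (adjusted p = 0.000142). An intronic peak 64998 bases downstream had 0.50 and 0.66, 6.00 and 6.11, and 6.97, 7.49 and 8.99 RPKM, with a P28 change of 2.47 (adjusted p = 0.000491). An intronic peak 26443 bases downstream had 0.95 and 1.50 RPKM at P4, 9.80 and 12.8 at P10, and 7.78, 11.5 and 13.6 at P28, with a change of 2.41 by P28 (adjusted p = 0.000646). The largest estimate by P28, named after its value was seen, was 3.31 (adjusted p = 0.000858) at an intronic peak 5551 bases downstream, with 0.57 and 1.48 RPKM at P4, 6.74 and 17.6 at P10, and 10.1, 23.2 and 26.6 at P28.

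**Figure D3:**
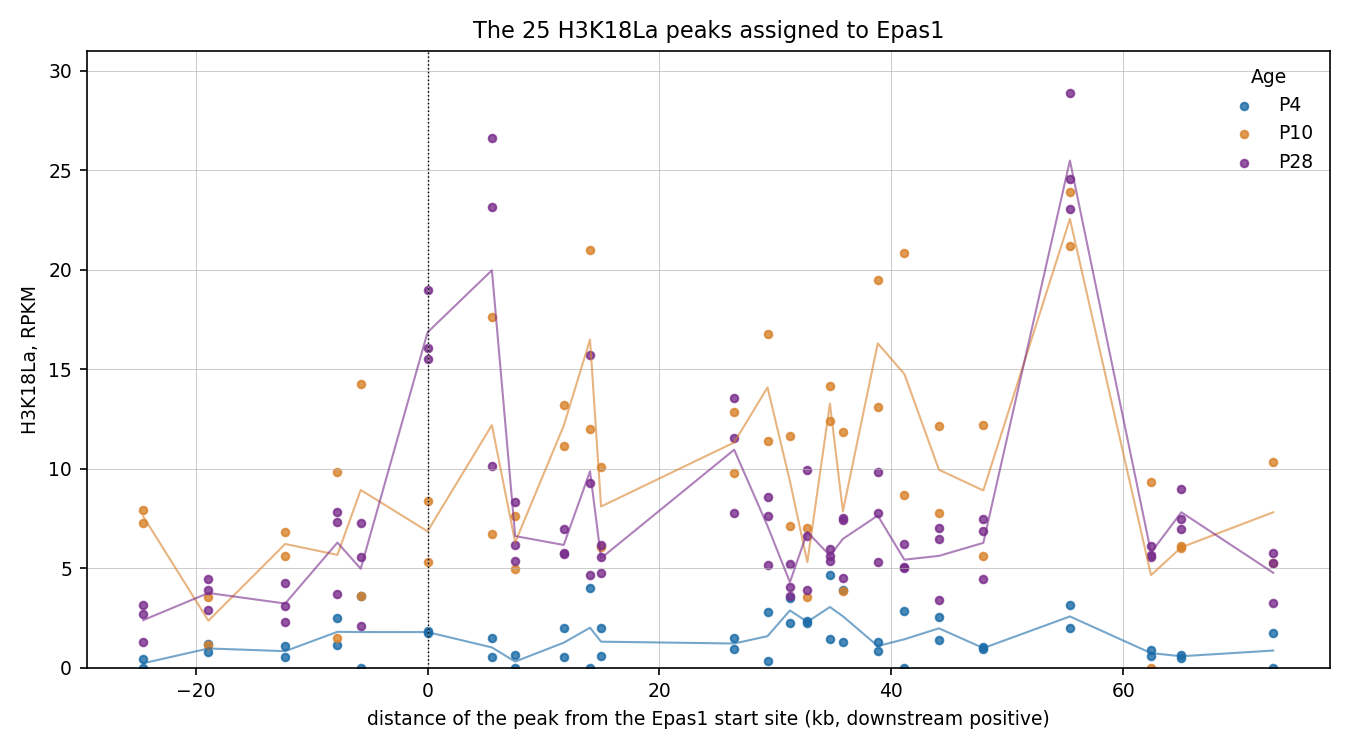
H3K18La in RPKM at the 25 peaks assigned to Epas1, by distance from its start site in kb, with 1 point per library and lines that join the means of each age (P4 blue, P10 orange, P28 purple). At the start site the P28 libraries, at 15.5 to 19.0 RPKM, lie above P10, while both P10 libraries lie above all P28 libraries at 9 of the 24 other peaks.

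Pooled over the 24 peaks, which span 26485 bases, the level was 1.24 and 1.69 RPKM at P4, 8.32 and 11.8 at P10, and 6.41, 8.47 and 9.76 at P28. P10 and P28 overlapped there, whereas at the promoter all P28 libraries were above P10. Taken within each library, the pooled level minus the promoter level in log2(RPKM + 1) was -0.34 and -0.03 at P4, 0.56 and 0.45 at P10, and -1.16, -0.85 and -0.89 at P28. The body and flank peaks exceeded the promoter in both P10 libraries only. The means were 0.50 ± 0.08 (SD, n = 2) at P10 and -0.97 ± 0.17 (SD, n = 3) at P28, and the exact permutation test gave its smallest possible p of 0.2 (0.3 adjusted over the 9 tests). The measure was chosen after the values were seen. At 9 of the 24 peaks both P10 libraries were above all P28 libraries, against 16.2% of all peaks outside promoters. No single Epas1 peak outside the promoter differed between P10 and P28 at an adjusted p of 0.05 in limma, and 5 did at an unadjusted p of 0.05.

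Outside promoters the other members had 22 peaks, of which 8 rose by P28 and 3 by P10. Of all peaks, promoters included, 18.9% and 11.4% did. For 3 of the 8, described in the next paragraph, the higher level at P28 is no test. The other 5 of the 8 were all at Egln1, each with a P4 library of at most 2 reads. They could enter the table only through P10 or P28, and the peaks 10283 bases upstream and 24380 bases inside only through P28. The rises of these 5 are therefore a description and no independent test. Those 5 of 22, like the P10 count, are near that background. A peak 13955 bases upstream of it, chr8:124963279-124965296, had 0.68 and 0.30 RPKM at P4, 3.58 and 5.86 at P10, and 8.19, 13.3 and 15.1 at P28, with a change of 3.12 (adjusted p = 0.000356). All P28 libraries were above P10, but the P28 minus P10 change of 1.20 did not pass (adjusted p = 0.0643). At P28 this peak was above its promoter peak in 2 of 3 libraries. An exonic peak 528 bases inside the gene had 1.13 and 2.22, 8.96 and 7.82, and 10.7, 9.53 and 8.79 RPKM, and it rose by 2.03 (adjusted p = 0.00112). An intronic peak 24380 bases inside had 0.56 and 0.36, 1.10 and 2.41, and 6.09, 5.63 and 6.86 RPKM, and rose by 2.30 (adjusted p = 0.00194). With 1 read each in P4 replicate 2 and P10 replicate 1, it could enter the table only through P28, so this higher level is a description.

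The other 3 of the 8, at Arnt, Bnip3 and Vegfa, had no read at P4 and at most 1 at P10. A peak entered the table only when called at some age, so these could enter only through P28, and their higher level there is a description with no test. The intronic Arnt peak 5377 bases inside the gene had no read in any P4 or P10 library and 1.76, 1.77 and 1.82 RPKM at P28. The intronic Bnip3 peak 2081 bases inside had none in either P4 library, 2.06 and 0 RPKM at P10, and 5.39, 6.03 and 7.49 at P28. A Vegfa peak 8490 bases upstream had none at P4, 0 and 1.05 RPKM at P10, and 3.49, 1.96 and 1.61 at P28. The P28 libraries were also the deepest.

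The one member peak that passed the test with a lower level was a distal Egln3 peak 44153 bases downstream of the start, with 2.08 and 2.73 RPKM at P4, none at P10, and 1.20, 0.42 and 1.19 at P28. Its change by P10 was -1.76 (adjusted p = 0.00755), on a total of 12 reads over the 7 libraries. The comparison sets 0 reads at P10 against 4 at P4, and the exact 95% counting interval of the P10 to P4 ratio, 0 to 3.22, includes no change. None of the 6 Egln3 peaks outside the promoter rose by P28 or by P10. The Egln3 peak with the most reads of these, 40382 bases downstream, had 2.75 and 1.81, 1.82 and 6.37, and 3.45, 4.84 and 4.71 RPKM. The Egln2 peak in its 5′ UTR had 0.37 and 2.41 RPKM at P4, none at P10 and 2.96, 2.73 and 3.07 at P28. Hif1an peaks 19525 and 22234 bases away had changes of 0.69 and -0.03 by P28, neither past the test. Between P10 and P28, 11 of the 57 peaks were higher at P28 at an adjusted p under 0.05, against 10.1% of all peaks. Among the 11 were the intronic Arnt peak, the Egln2 5′ UTR peak and both of these Hif1an peaks. An Egln1 peak 36403 bases and a Vegfa peak 10527 bases downstream were also among them. All of these named peaks had no read in either P10 library. They compare with a count of 0 in shallow libraries, so they are a description with no test.

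Other genes of the pathway were taken as a list of 58, of which 47 had a promoter peak. By P28, 22 of the 47 had risen and none had fallen, and by P10, 7 and none, against 34.2% and 12.7% of all promoters that rose. The P10 count is near that background. The 22 became 8 to 12 without any one of the P4 or P28 libraries and 29 without either P10 library. Among HIF partners and regulators 6 of 13 rose by P28, with a median change of 1.32 against 1.36 for all promoters. Hsp90aa1, which encodes a chaperone of HIF-1α, had 1.15 and 1.50 RPKM at P4, 10.6 and 13.9 at P10, and 12.8, 15.0 and 18.3 at P28 (2.80 ± 0.30, adjusted p = 0.000211). Siah1a, a ubiquitin ligase that targets prolyl hydroxylases, rose by 1.83 ± 0.34 (adjusted p = 0.00244), and Ep300, a coactivator acetyltransferase, by 1.88 ± 0.35 (adjusted p = 0.00269).

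Among HIF target genes 15 of 23 rose by P28 and 6 by P10, against 34.2% and 12.7% of all promoters, with a median change of 1.79 by P28 and 1.36 over all promoters. Ddit4, a brake on mTORC1 signalling, had 4.02 and 3.96 RPKM at P4, 24.0 and 36.1 at P10, and 37.9, 37.5 and 45.6 at P28 (3.04 ± 0.26, adjusted p = 0.000126). Bhlhe41, a transcriptional repressor, had 4.21 and 3.46, 39.7 and 34.7, and 22.5, 26.5 and 30.8 RPKM (2.51 ± 0.26, adjusted p = 0.00018). Vldlr, a lipoprotein receptor, had 4.21 and 3.69, 17.97 and 18.13, and 22.2, 23.9 and 27.5 RPKM (2.36 ± 0.25, adjusted p = 0.000204). In all 3 the P10 libraries were already far above P4, and in Bhlhe41 both were above all P28 libraries.

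Among ligands and receptors the median change was 0.37 by P28 and 0.78 by P10, and over all promoters it was 1.36 and 0.56. Of 6 VEGF family members and receptors with a promoter peak, 1 rose by P28, against 34.2% of all promoters, and none by P10, against 12.7%. The one that rose was Vegfb, with 0.35 and 0.45 RPKM at P4, 2.75 and 2.40 at P10, and 4.79, 6.36 and 7.89 at P28 (2.37 ± 0.39, adjusted p = 0.0013). It held 2 reads at P4 and 6 at P10. On so few reads it could enter the table only through P28, so its rise is a description and no independent test. The co-receptor Nrp2 (1.59 ± 0.41, adjusted p = 0.013) and the lymphatic growth factor Vegfc (-0.98 ± 0.44, adjusted p = 0.0979) did not pass. Of 5 partners in retinal vessel growth none passed by P28 or P10, with medians of 0.17 and -0.31, against the same shares of all promoters. By P28 Lrp5 (1.15), Dll4 (1.06) and Angpt1 (-1.23) had the smallest p. By P10 it was Tspan12 (-1.76, adjusted p = 0.0111), named after its values were seen, with 11 reads at P4 and none at P10. The receptor genes Flt1, Flt4, Tek and Tie1 had no promoter peak. No test compared the lists with each other.

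**Figure D4:**
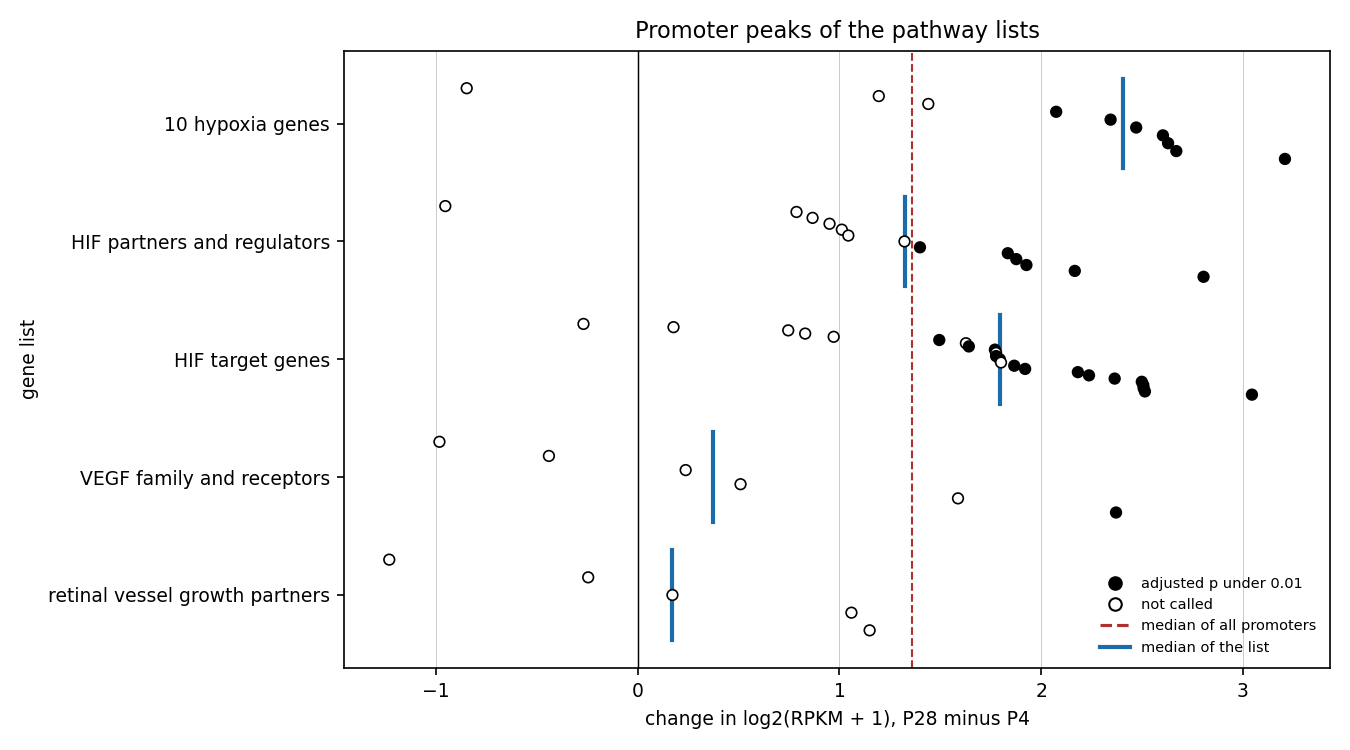
Change in log2(RPKM + 1) from P4 to P28 at the promoter peak of each gene, by list, with the genes of a list sorted by their change. Filled points passed an adjusted p of 0.01, the blue bar is the median of the list, 2.41 for the 10 genes and 0.17 for the vessel growth partners, and the dashed line is the median of all promoters.

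By the course over the 7 libraries, the promoters most like that of Vegfa among 4286 with at least 10 P4 reads were Pdcd4, Ogdh, Hnrnpa2b1, Hnrnpa0 and Pgm1. Their Pearson correlations of log2(RPKM + 1) with Vegfa were 0.987 to 0.996. Such values were common, as 528 of the candidates exceeded 0.9, and the libraries share depth and age.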

How the data were processed

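H3K18La CUT&Tag was measured in 7 retina libraries. Per the study's methods, the authors mapped reads to GRCm38, called MACS peaks, merged those with a −log10 q above 6 seen in at least 2 replicates, annotated them with ChIPseeker 1.34.1 (promoters from 1000 bases before to 500 after a start) and counted reads per peak. The authors deposited the values as RPKM, on library sizes normalised over 10000-base windows. Because RPKM times width was a whole multiple of 1 read for 100% of values (tolerance 0.01), reads and effective library sizes were recovered from them. The deposited table of differential binding holds the authors' own comparisons and was not used.

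Ages were taken from the labels. limma 3.58.1 (R 4.3.3) was fitted to log2(RPKM + 1) with a variance trend over all 7 libraries and 108253 peaks, where the authors had used edgeR 3.40.2, and p-values were Benjamini-Hochberg adjusted over all peaks. This log2 scale, computed from the deposited values, understates changes of weak peaks. Intervals of read ratios are exact, at 95%, and cover counting error only, since reads carried no molecular identifiers. Background promoters were the nearest promoter peak of each of 11686 protein-coding genes in GENCODE vM21. Scripts were tested on simulated data.

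The members, lists and tests were chosen with earlier results of these data known. All 10 genes were named, with up to 3 called peaks outside promoters per gene and the one with the most reads, the 3 smallest p-values in each pathway list, and the 5 promoters most like Vegfa. Further peaks (the single lower call and its neighbours) were chosen after their values were seen. Alternatives covered the pseudocount, a filter on low values, scaling, voom, a replicate block, the threshold, the choice of promoter peak and leaving out each library.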

Additional observations from a re-analysis of the deposited data

How the results depend on the processing

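Depth at P4 and P10 and the scale of the libraries set what can be said. A peak with too few reads to be called at P4 or P10 could enter the table only through P28, and counts of rises by P28 include such peaks. Others with too few reads at P4 could enter only through P10 or P28, and counts of rises from P4 include those as well. Every member promoter kept the direction of its change from P4 to P28 in all settings, but counts of calls moved. For P28 against P4, the 7 promoters called became 4 with a pseudocount of 0.1, 2 with scaling to reads in peaks (Epas1 and Arnt) and 4 to 9 with one library left out, 4 without any one of the P4 or P28 libraries. The share of all promoters called was 34.5% as deposited and 23.7%, 11.9% and 10.5% to 56.6% in those settings. Without P28 replicate 1, which keeps batch 1 only, they were 4. For P10 against P4, the 5 became 2 with scaling to reads in peaks (Arnt higher, Egln3 lower) and 1 to 4 with one library left out. For P28 against P10, the 0 became 1 with voom, 2 at an adjusted p under 0.05 and 0 to 3 with one library left out. Over all 57 peaks, the 24 called by P28 became 11 with scaling to reads in peaks, 38 with voom, 37 at 0.05 and 10 to 33 with one library left out. Of all 108253 peaks, 25041 were called in either direction as deposited, 24747 with scaling to reads in peaks and 44945 with voom. With one library left out, 7772 to 42390 of them were called, so the counts of the 57 moved with a moving background. The 22 of the pathway list became 9 with scaling to reads in peaks and 8 to 29 with one library left out. The median change of 2.41 became 3.41 with a pseudocount of 0.1, 1.55 with scaling to reads in peaks, 1.89 with median centring, 3.16 with voom and 2.07 to 2.48 with one library left out. The median of all promoters was then 1.91, 0.30, 0.84 and 1.71 in the first 4 of these, against 1.36, and the share of all calls that were higher at P28 was 81.8% as deposited, 31.9% with scaling to reads in peaks and 56.9% with median centring. The cause was not tested.

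Same-numbered libraries did not deviate together (correlations of -0.001 to 0.047), so the numbers do not pair them. With the replicate block, the 7 promoters called by P28 became 5, the 24 peaks 15, the 22 pathway promoters 11 and the median 2.28. Of all 108253 peaks, 15233 were called in either direction with the block and 25041 without it.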
